A study of Mus musculus with 12 samples.

Results

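Prostaglandin synthesis and receptor genes were followed across 4 groups of mouse kidneys. The 10 genes were taken by symbol, out of 24421 gene symbols in the deposited matrices, and all 10 were present: the cyclooxygenases Ptgs1 and Ptgs2, the terminal synthases Ptges, Ptgds and Ptgis, the degrading enzyme Hpgd, and the prostaglandin E2 receptor genes Ptger1, Ptger2, Ptger3 and Ptger4. For each symbol the transcript with the highest total count over the 12 libraries was used. RNA-seq was done on kidneys of 6-week-old male mice, labelled C57BL/6 and described in the study's methods as on a C57BL/6J background, either WT or Tet2-/-, with 3 libraries per group. The baseline groups are labelled healthy controls. The ischemia-reperfusion (IR) mice had 60 min of ischemia of the right kidney combined with left nephrectomy, and their tissue dates from 24 h of reperfusion. Comparisons of IR with baseline therefore include the operation and the loss of the other kidney, because sham-operated kidneys were not analysed here. The Tet2-/- mice were bred from heterozygous pairs, so the mutation is carried through the germline and is not confined to the kidney.

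Prostaglandins are made from arachidonic acid. Phospholipases A2 release the fatty acid from membranes, and the cyclooxygenases Ptgs1 (COX-1) and Ptgs2 (COX-2) turn it into the intermediate PGH2. Terminal synthases then make PGE2 (Ptges), PGD2 (Ptgds) or prostacyclin (Ptgis), and Hpgd inactivates PGE2 and related prostanoids. PGE2 acts on the EP1 to EP4 receptors, encoded by Ptger1 to Ptger4. In the kidney, Ptgs2 is known from the macula densa and from interstitial cells, EP1 from the collecting duct and EP3 from the thick ascending limb and the collecting duct, and PGE2 bears on salt and water transport, renin release and medullary blood flow.

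The libraries held 51007366 to 107969888 counts over 1 transcript per symbol. Proximal tubule markers summed to 14709 FPKM (read counts scaled by transcript length and library depth) or more in every library, and adrenal and skeletal muscle markers to 2.04 FPKM or less. WT baseline replicate 2 had the highest collecting duct sum (1065 FPKM, of which Aqp2 alone was 775 FPKM, while Scnn1b and Scnn1g were the lowest of its group) and a low thick ascending limb sum (840 FPKM). Tet2-/- labelled IR replicate 3 had the lowest thick ascending limb sum (394 FPKM), the lowest collecting duct sum (352 FPKM) and the highest adipocyte sum (613 FPKM). Tet2 went against its label at baseline: it was 9.15, 6.25 and 7.33 FPKM in the WT libraries and 9.25, 16.6 and 10.3 FPKM in those labelled Tet2-/- (log2 fold change 0.76, edgeR quasi-likelihood test, adjusted p = 0.321). After IR it was 9.34, 3.97 and 3.86 FPKM in WT and 2.64, 3.20 and 1.76 FPKM in the libraries labelled Tet2-/- (log2 fold change −1.28, adjusted p = 0.069). Which part of the transcript was deleted is not given in the sources used here, so the knockout libraries are called "labelled Tet2-/-" throughout.

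In the libraries labelled Tet2-/-, 6 of the 10 genes changed after IR. Ptgs2, Ptges and Ptger4 rose, and Hpgd, Ptger1 and Ptger3 fell. In WT libraries none of the 10 passed the test after IR. A gene was called at a Benjamini-Hochberg adjusted p under 0.05 over all genes tested and an absolute log2 fold change over 1. Among all 16359 genes tested in the Tet2-/- labelled comparison, 24.3% were called (12.7% higher and 11.6% lower). In WT the share was 2.35% of 16015 genes (1.46% higher and 0.887% lower), and this count moves with single libraries: it was 376 genes with all 6 libraries and 87 to 548 with 1 left out. Each comparison had 3 libraries against 3, for which an exact permutation test of a single gene cannot go below p = 0.1, so the tests rest on edgeR's quasi-likelihood fit across all genes. The 5 comparisons share libraries and are not independent of each other. In bulk kidney, fewer cells of a type and less RNA per cell cannot be told apart.

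**Figure D1:**
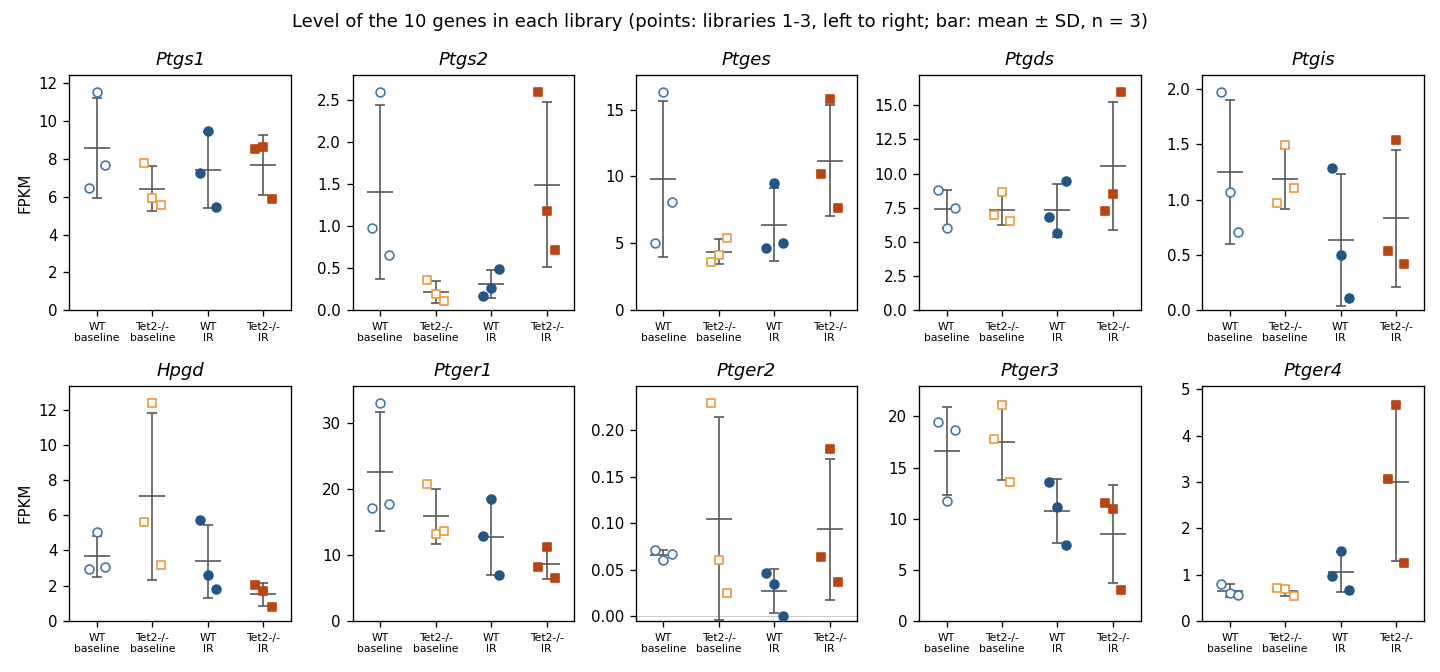
Level of each of the 10 genes in FPKM (linear axes) in the 3 libraries of each group, ordered by replicate number from left to right, with the mean and the SD (n = 3). Ptgs2 and Ptger4 were higher in all 3 Tet2-/- labelled IR libraries than in all 3 Tet2-/- labelled baseline libraries, and Hpgd, Ptger1 and Ptger3 were lower.

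The 3 genes that rose together in the Tet2-/- labelled libraries are shown with the 250 bases before their start sites, so that their promoters can be compared. The sequences are from RefSeq (GRCm38.p6), whose promoter table held 8 of the 10 genes. They run 5′ to 3′ on the gene's strand and end at the base before the start of the deposited transcript. The same letters were found in mm9, the build of the deposited files, at chr1:151946911-151947160 (plus strand) for Ptgs2, at chr2:30758818-30759067 (minus strand) for Ptges and at chr15:5194188-5194437 (minus strand) for Ptger4. Capitals mark matches to the motifs searched.
Ptgs2: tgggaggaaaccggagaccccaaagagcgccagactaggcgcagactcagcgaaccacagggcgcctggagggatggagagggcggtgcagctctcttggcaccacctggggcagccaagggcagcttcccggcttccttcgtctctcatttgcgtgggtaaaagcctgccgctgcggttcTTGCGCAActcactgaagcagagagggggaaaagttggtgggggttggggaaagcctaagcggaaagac
Ptges: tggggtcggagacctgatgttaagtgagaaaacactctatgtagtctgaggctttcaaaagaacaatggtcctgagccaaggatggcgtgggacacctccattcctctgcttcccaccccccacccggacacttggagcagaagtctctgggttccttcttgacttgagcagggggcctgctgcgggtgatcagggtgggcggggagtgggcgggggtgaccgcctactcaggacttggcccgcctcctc
Ptger4: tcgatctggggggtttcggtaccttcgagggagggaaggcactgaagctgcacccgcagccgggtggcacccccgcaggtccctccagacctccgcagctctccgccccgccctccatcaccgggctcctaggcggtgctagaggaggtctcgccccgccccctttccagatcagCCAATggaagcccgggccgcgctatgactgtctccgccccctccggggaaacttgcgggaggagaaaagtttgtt
The Ptgs2 window held the palindromic C/EBP motif TTGCGCAA at −69 to −62, counted from −1 at the base before the start, which 0.164% of 32851 RefSeq promoter windows of the same length hold. The Ptger4 window held a CCAAT box at −75 to −71, which 33.8% of windows hold. The Ptges window held no match. Of the other 5 genes in the table, Ptgds held an AP-1 and an NF-kappaB match, Ptger2 a CCAAT box, and Ptgs1, Hpgd and Ptger3 none. On both strands the search also covered the TATA box (TATAAA, 12.4% of windows), the E-box (CACGTG, 6.02%), the cyclic AMP element (TGACGTCA, 1.55%), the AP-1 site (TGACTCA, 4.46%) and the NF-kappaB consensus (3.90%). No match printed overlaps a match to another of these motifs, and a match is a run of letters, not a measured site. GC content was 61.6% for Ptgs2, 59.6% for Ptges and 66.8% for Ptger4.

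Ptgs2 (mm9 chr1:151947161-151955364, plus strand) gave the widest swings between groups among the 10 genes. Its level was 0.975, 2.60 and 0.651 FPKM in WT baseline, 0.363, 0.192 and 0.104 FPKM in Tet2-/- labelled baseline, 0.171, 0.266 and 0.489 FPKM in WT IR, and 2.59, 1.18 and 0.713 FPKM in Tet2-/- labelled IR libraries. All WT baseline libraries lay above all WT IR libraries, and all Tet2-/- labelled IR libraries lay above all Tet2-/- labelled baseline libraries, so the order of baseline and IR was opposite in the 2 genotypes. The rise in the libraries labelled Tet2-/- was 2.52 on the log2 scale (SE 0.59, adjusted p = 0.0119). It was 2.84 without replicate 3 of the Tet2-/- labelled IR group (adjusted p = 0.00737), whose segment markers stood apart, and 1.82 without replicate 1 (adjusted p = 0.0333), where Ptgs2 was highest. With limma on log2(FPKM + 1) it was 0.97 (adjusted p = 0.0232), under the fold limit. In WT the log2 fold change was −2.21 (SE 0.63, adjusted p = 0.106), past the call with DESeq2 (adjusted p = 0.00315) and with no other tool or setting tried. The interaction of genotype and IR tests the difference between these effects. It was 4.77 on the log2 scale (SE 0.96, adjusted p = 0.0139), the single call among the 10 genes, beside 9.18% of 16741 genes called (3.79% higher and 5.39% lower). With replicate number as a block 3 of the 10 were called, beside 11% of all genes. The interaction was 3.94 without WT baseline replicate 2 (adjusted p = 0.0302), the library with the highest Ptgs2 level in its group. It passed in each of the 12 fits that left out 1 library. It was 4.21 when WT baseline replicates 2 and 3 were both left out. That fit has 1 library in the WT baseline group, so no call is read from it.

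Between genotypes, Ptgs2 was lower in every Tet2-/- labelled library than in every WT library at baseline (log2 fold change −2.61, SE 0.63, adjusted p = 0.239). After IR it was higher in each Tet2-/- labelled library than in each WT library (2.13, SE 0.61, adjusted p = 0.0704). Neither passed the test over all genes, in which 0.0124% of 16086 genes were called at baseline and 6.15% of 16186 after IR (2.3% higher and 3.85% lower). DESeq2 called both (adjusted p = 0.000552 and 0.00244), beside 1.99% of all genes at baseline and 10.2% after IR.

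Ptgs1 (mm9 chr2:36085946-36107791, plus strand), the constitutive cyclooxygenase, showed no such pattern. It was 6.45, 11.5 and 7.70 FPKM in WT baseline, 7.81, 5.92 and 5.57 FPKM in Tet2-/- labelled baseline, 7.26, 9.50 and 5.47 FPKM in WT IR, and 8.51, 8.66 and 5.87 FPKM in Tet2-/- labelled IR libraries. The groups overlapped in all comparisons, and the log2 fold change on IR was −0.28 (SE 0.25) in WT and −0.01 (SE 0.18) in the libraries labelled Tet2-/-. Ptgs1 exceeded Ptgs2 in every library. As a share of the summed FPKM of both genes, Ptgs2 made up 13.1%, 18.4% and 7.80% in WT baseline, 4.44%, 3.14% and 1.83% in Tet2-/- labelled baseline, 2.30%, 2.72% and 8.20% in WT IR, and 23.4%, 12% and 10.8% in Tet2-/- labelled IR libraries. Within each genotype the shares at baseline and after IR did not overlap in the libraries labelled Tet2-/-, and overlapped in WT through WT IR replicate 3.

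**Figure D2:**
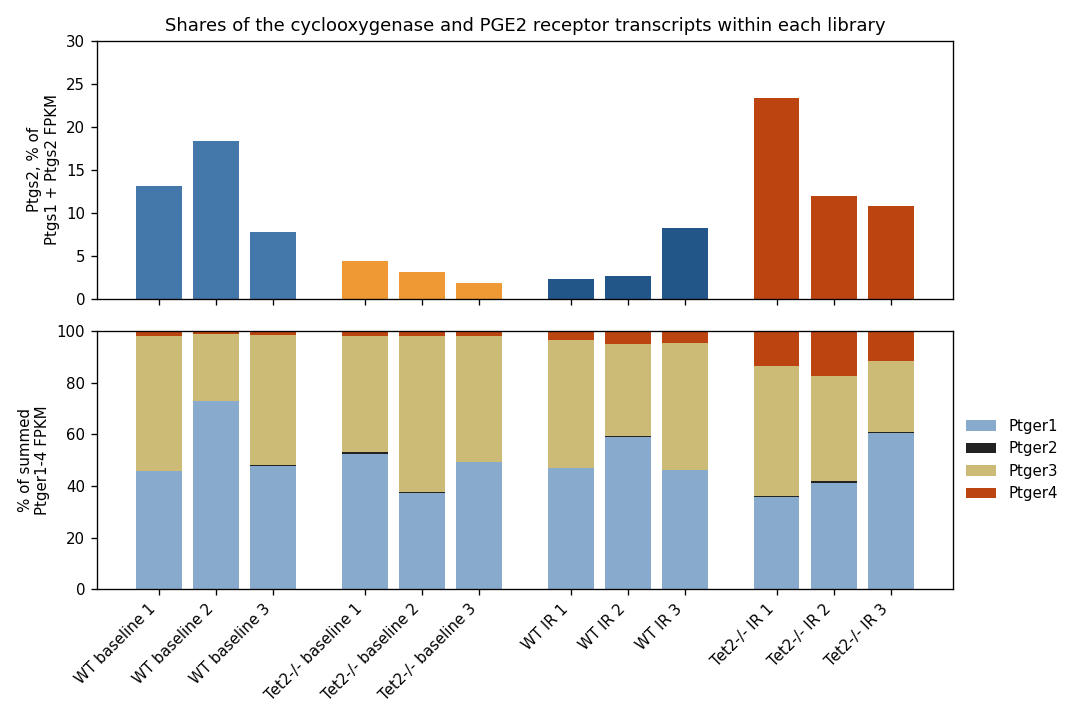
Upper panel, Ptgs2 as a percent of the summed Ptgs1 and Ptgs2 FPKM in each of the 12 libraries. Lower panel, the percent of the summed FPKM of the 4 PGE2 receptor genes taken by each, in which Ptger4 is the top segment of each bar and reached 11.5% to 17.3% in the Tet2-/- labelled IR libraries.

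Ptges (mm9 chr2:30744991-30758817, minus strand) encodes the microsomal PGE synthase that works downstream of Ptgs2. It was 5.04, 16.3 and 8.09 FPKM in WT baseline, 3.62, 4.11 and 5.38 FPKM in Tet2-/- labelled baseline, 4.63, 9.51 and 5.02 FPKM in WT IR, and 10.2, 15.8 and 7.65 FPKM in Tet2-/- labelled IR libraries. The Tet2-/- labelled groups did not overlap and the WT groups did. It rose by 1.07 on the log2 scale in the libraries labelled Tet2-/- (SE 0.25, adjusted p = 0.0114). The call is close to the fold limit: without Tet2-/- labelled baseline replicate 1 or IR replicate 2 the log2 fold change was 0.94 and 0.83. In WT the log2 fold change was −0.68 (SE 0.45, adjusted p = 0.403), and it turned to 0.27 when WT baseline replicates 2 and 3 were left out. The interaction was 1.8 (SE 0.56, adjusted p = 0.0665), and with replicate number as a block it passed (1.70, adjusted p = 0.029).

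Ptgds (mm9 chr2:25322232-25325269, minus strand), the lipocalin-type PGD synthase, lay between 5.65 and 9.46 FPKM in 11 libraries and at 16 FPKM in Tet2-/- labelled IR replicate 3. That library had the highest adipocyte marker sum (613 FPKM, of which Fabp4 was 445 FPKM). WT baseline replicate 3, with the next highest sum (284 FPKM), had Ptgds at 7.46 FPKM, and 6 of the 8 adipocyte markers were lower there than in Tet2-/- labelled IR replicate 3. The part of these cells in the Ptgds level was not tested. No comparison called it (log2 fold change on IR −0.06, SE 0.28, in WT and 0.29, SE 0.34, in the libraries labelled Tet2-/-). Ptgis (mm9 chr2:167028696-167066037, minus strand), the prostacyclin synthase of vessels and stroma, was 1.97, 1.07 and 0.709 FPKM in WT baseline, 0.967, 1.5 and 1.11 FPKM in Tet2-/- labelled baseline, 1.28, 0.498 and 0.113 FPKM in WT IR, and 0.531, 1.54 and 0.417 FPKM in Tet2-/- labelled IR libraries. No comparison passed with all libraries. On IR in the libraries labelled Tet2-/- the log2 fold change was −0.82 (SE 0.48, adjusted p = 0.204), and without IR replicate 2, where Ptgis was highest in its group, it was −1.53 and passed (adjusted p = 0.0131). WT IR replicate 3, where Ptgis was lowest, also had the lowest endothelial (11.1 FPKM) and fibroblast (11.7 FPKM) marker sums, and their part in its level was not tested.

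Hpgd (mm9 chr8:58773349-58799843, plus strand), the dehydrogenase that starts the breakdown of PGE2, moved the other way from Ptgs2 and Ptges in the libraries labelled Tet2-/-. Its level was 2.94, 5.03 and 3.06 FPKM in WT baseline, 5.63, 12.4 and 3.20 FPKM in Tet2-/- labelled baseline, 5.75, 2.60 and 1.82 FPKM in WT IR, and 2.05, 1.70 and 0.789 FPKM in Tet2-/- labelled IR libraries. All 3 Tet2-/- labelled IR libraries lay below all 3 Tet2-/- labelled baseline libraries, and the WT groups overlapped. The log2 fold change was −2.49 (SE 0.53, adjusted p = 0.00833). Hpgd was called in all 19 alternatives of this comparison, and the effect was −1.81 on the log2 scale without Tet2-/- labelled baseline replicate 2, where Hpgd was highest. In WT it was −0.20 (SE 0.42, adjusted p = 0.817). The interaction of −2.26 (SE 0.75, adjusted p = 0.0791) did not pass, so the effects are not shown to differ, and with the replicate block it passed (−2.12, adjusted p = 0.046). After IR the genotypes differed by −1.25 (SE 0.49, adjusted p = 0.149), with overlapping libraries.

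Among the PGE2 receptor genes, Ptger1 and Ptger3 held most of the FPKM in every library, Ptger4 less and Ptger2 least. Ptger1 exceeded Ptger3 in 6 of 12 libraries, so these neighbours had no fixed order. The sum of the 4 genes was 27.9 to 45.5 FPKM at baseline and 10.9 to 31.2 FPKM after IR.

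Ptger4 (mm9 chr15:5183399-5194187, minus strand) encodes EP4, which raises cyclic AMP. Its level was 0.804, 0.608 and 0.553 FPKM in WT baseline, 0.717, 0.685 and 0.532 FPKM in Tet2-/- labelled baseline, 0.960, 1.52 and 0.676 FPKM in WT IR, and 3.07, 4.66 and 1.25 FPKM in Tet2-/- labelled IR libraries. The 6 baseline libraries were close together, and the Tet2-/- labelled IR libraries lay above all of them. The rise in the libraries labelled Tet2-/- was 1.93 on the log2 scale (SE 0.41, adjusted p = 0.00813), was called in all 19 alternatives and was 2.26 without IR replicate 3. In WT the log2 fold change was 0.60 (SE 0.32, adjusted p = 0.313). The genotype difference after IR was 1.40 (SE 0.46, adjusted p = 0.0986) with 1 WT library above the lowest Tet2-/- labelled library. Without Tet2-/- labelled IR replicate 3 it passed (1.73, adjusted p = 0.048), as it did with DESeq2 (1.39, adjusted p = 0.0175) and with the replicate block (1.30, adjusted p = 0.0399), which called 6.75% of all genes. The interaction was 1.36 (SE 0.55, adjusted p = 0.135), and 1.70 without that library (adjusted p = 0.0321). A further deposited transcript of Ptger4 gave nearly the same values, from 0.543 to 4.73 FPKM.

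The share of receptor FPKM taken by Ptger4 was 1.34% to 2.14% in the 6 baseline libraries, 3.49% to 4.87% in WT IR and 11.5% to 17.3% in Tet2-/- labelled IR libraries, with no overlap between these 3 ranges. The sum of the 8 neutrophil markers moved in the same order, but not each marker did. The sum was 0.606 to 3.0 FPKM at baseline, 4.11 to 9.49 FPKM in WT IR and 75.4 to 133 FPKM in Tet2-/- labelled IR libraries. S100a8 (27.4 to 47.2 FPKM) and S100a9 (33.1 to 65.0 FPKM) held most of it in the last group. Ltf overlapped, at 0.030 to 0.137, 0.034 to 0.087 and 0.058 to 0.235 FPKM. On IR 7 of 8 rose in the libraries labelled Tet2-/-, some from few or no baseline counts. In WT 0 of the 4 tested were called. The sum of 9 macrophage markers was 36.2 to 63.4 FPKM at baseline, 31.7 to 62.9 FPKM in WT IR and 60.4 to 122 FPKM in Tet2-/- labelled IR libraries. Its members differed: on IR in the libraries labelled Tet2-/- 3 of 9 rose and 1 fell, and in WT 2 rose. Cd14 was 1.09 to 1.85 FPKM in Tet2-/- labelled baseline and 31.9 to 50.9 FPKM in Tet2-/- labelled IR libraries, while Csf1r was 18.1 to 30.9 FPKM and 2.21 to 6.93 FPKM. Podocyte markers summed to 24.3 to 41.3 FPKM at baseline, 22.3 to 54.6 FPKM in WT IR and 83.0 to 127 FPKM in Tet2-/- labelled IR libraries, and 6 of 6 rose on IR in the libraries labelled Tet2-/- and 0 of 6 were called in WT. Tubule injury markers summed to 217 to 514 FPKM at baseline, 1646 to 7847 FPKM in WT IR and 11968 to 25900 FPKM in Tet2-/- labelled IR libraries. The part of these cells and of injury in the Ptger4 level was not tested.

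Ptger1 (mm9 chr8:86190539-86194002, plus strand), the EP1 gene, was 17.2, 33.1 and 17.7 FPKM in WT baseline, 20.7, 13.1 and 13.7 FPKM in Tet2-/- labelled baseline, 12.9, 18.5 and 6.95 FPKM in WT IR, and 8.20, 11.1 and 6.58 FPKM in Tet2-/- labelled IR libraries. The Tet2-/- labelled groups did not overlap, and in WT IR replicate 2 alone reached the baseline range. Ptger1 fell by 1.14 on the log2 scale in the libraries labelled Tet2-/- (SE 0.22, adjusted p = 0.00492). The fold is near the limit and was −0.92 without Tet2-/- labelled baseline replicate 1 and −0.91 with library size alone as the scaling. In WT it was −0.91 (SE 0.37, adjusted p = 0.199), and the interaction was −0.20 (SE 0.46, adjusted p = 0.819). Of 11 collecting duct markers, 3 fell on IR in the libraries labelled Tet2-/- and 0 were called in WT. Their sum was 428 to 726 FPKM in Tet2-/- labelled baseline and 352 to 591 FPKM in Tet2-/- labelled IR libraries, with overlap, and their part in the Ptger1 level was not tested. Whether the counting used strand is not given in the sources used here.

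Ptger3 (mm9 chr3:157229856-157307722, plus strand), the EP3 gene, was 19.5, 11.7 and 18.7 FPKM in WT baseline, 17.8, 21.2 and 13.6 FPKM in Tet2-/- labelled baseline, 13.6, 11.2 and 7.43 FPKM in WT IR, and 11.6, 11 and 2.98 FPKM in Tet2-/- labelled IR libraries. The Tet2-/- labelled IR libraries lay below all libraries of both baseline groups. The log2 fold change in the libraries labelled Tet2-/- was −1.33 (SE 0.43, adjusted p = 0.0401). This was the weakest of the 6 calls: it was lost in 9 of 19 alternatives, among them 5 of the 6 fits that left out a library. Without IR replicate 3, the library with the lowest thick ascending limb markers, it was −0.94 (adjusted p = 0.00892), and without Tet2-/- labelled baseline replicate 2 it was −1.17 (adjusted p = 0.107). In WT it was −0.71 (SE 0.26, adjusted p = 0.166), and the interaction was −0.57 (SE 0.56, adjusted p = 0.543).

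Of 6 thick ascending limb markers, 2 fell on IR in the libraries labelled Tet2-/- and 0 were called in WT. Umod, the gene of uromodulin, made up 70.1% to 95.1% of the 6-marker sum in each library. It was 807 to 1470 FPKM in Tet2-/- labelled baseline and 354 to 2512 FPKM in Tet2-/- labelled IR libraries, with overlap. Slc12a1, the sodium-potassium-chloride cotransporter of this segment, was 106 to 157 FPKM and 18.3 to 56.6 FPKM in the same groups, and Egf 118 to 204 FPKM and 2.82 to 26.4 FPKM, both without overlap. Kcnj1 (39.1 to 56.9 FPKM and 11.3 to 49.4 FPKM), Cldn16 (4.91 to 7.93 FPKM and 2.76 to 8.08 FPKM) and Cldn19 (7.91 to 11.3 FPKM and 4.77 to 20.6 FPKM) overlapped between the same groups. In Tet2-/- labelled IR replicate 3 each of the 6 markers was at its lowest of the 12 libraries. The level of Ptger3 relative to its segment therefore depends on the marker it is set against, and the part of these cells in its change was not tested.

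Ptger2 (mm9 chr14:45607786-45623495, plus strand), the EP2 gene, was the lowest of the 10, at 0.071, 0.060 and 0.067 FPKM in WT baseline, 0.230, 0.060 and 0.025 FPKM in Tet2-/- labelled baseline, 0.046, 0.034 and 0 FPKM in WT IR, and 0.063, 0.180 and 0.037 FPKM in Tet2-/- labelled IR libraries. A count of 0 in WT IR replicate 3 allows up to 3 counts, or 0.0101 FPKM. All 3 WT IR libraries lay below all 3 WT baseline libraries (log2 fold change −1.42, SE 0.82, adjusted p = 0.353), while the Tet2-/- labelled groups overlapped (−0.43, SE 0.84). After IR the genotypes differed by 1.71 (SE 0.99, adjusted p = 0.3), with overlapping libraries. No comparison passed.

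**Figure D3:**
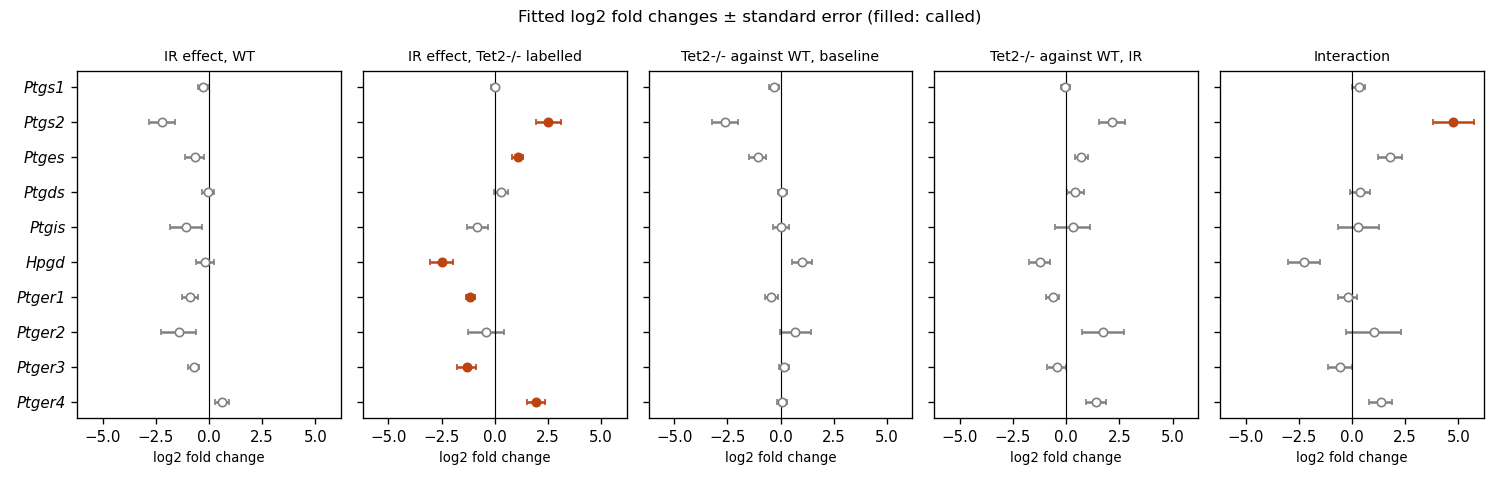
Fitted log2 fold changes of the 10 genes with standard errors in the 5 comparisons (edgeR, linear axis in log2 units). Filled points passed the test: 6 genes on IR in the libraries labelled Tet2-/- and Ptgs2 in the interaction.

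Over the whole set, 0 of 10 genes were called on IR in WT by edgeR, with 3 at an unadjusted p under 0.05 (22.7% of all genes) and 1 called by DESeq2 (6.13% of all genes). At baseline 0 of 10 were called between genotypes, with 2 at an unadjusted p under 0.05 (11.8% of all genes) and 1 called by DESeq2 (1.99% of all genes). After IR 0 of 10 were called between genotypes, with 3 at an unadjusted p under 0.05 (28.9% of all genes), and 2 (Ptgs2 and Ptger4) called by DESeq2 (10.2% of all genes). The median log2 fold change of the 10 genes on IR was −0.70 in WT, beside −0.03 over all genes tested, with 9 of 10 below 0. All were measured in the same 6 libraries, and Ptgs1, Ptges, Ptgds and Hpgd changed sign in at least 1 alternative. In the libraries labelled Tet2-/- the median was −0.22, beside 0.04 over all genes, with 4 of 10 above 0. An effect called in the libraries labelled Tet2-/- and not in WT is shown to differ between the genotypes only where the interaction passed. That was Ptgs2 in the fit without the replicate block, and Ptges and Hpgd as well with the block or with DESeq2, whose interaction called 16.8% of all genes.

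The other genes of the pathway were taken from a list of 37 symbols, of which 35 were found. On IR in WT, 2 of 27 tested genes rose and none fell, beside 1.46% higher and 0.887% lower of all genes. They are the carbonyl reductases Cbr1 (log2 fold change 1.88, adjusted p = 0.0108) and Cbr3 (3.07, adjusted p = 0.00567), which act on prostaglandin ketones among other substrates. Of the 6 fits that left out 1 library, the call was lost in 2 for Cbr1 and in 0 for Cbr3. In the libraries labelled Tet2-/-, 9 of 28 rose and 5 fell, beside 12.7% higher and 11.6% lower of all genes, and the median log2 fold change was 0.59, beside 0.04 over all genes. Of these 9, Pla2g2e passed the low-count filter only through the group where it was high, so its call was bound to follow. Without it 8 of 27 rose, with a median of 0.56. Between genotypes 0 of 27 were called at baseline by edgeR, with 4 at an unadjusted p under 0.05 (11.8% of all genes) and 3 called by DESeq2 (1.99% of all genes). After IR 2 of 28 were higher (Hpgds and Akr1b8) and 3 lower (Fam213b, Ptgr2 and Cyp4f14) in the libraries labelled Tet2-/-, beside 6.15% of all genes. With a library left out the count was 1 to 3. Over the 6 such fits the call was lost in 6 for Cyp4f14, 5 for Akr1b8, 4 for Hpgds, 3 for Fam213b and 0 for Ptgr2. The interaction called 6 of 28, beside 9.18% of all genes. With replicate number as a block, 5 genes of the list were called on IR in WT, beside 6.16% of all genes.

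**Figure D4:**
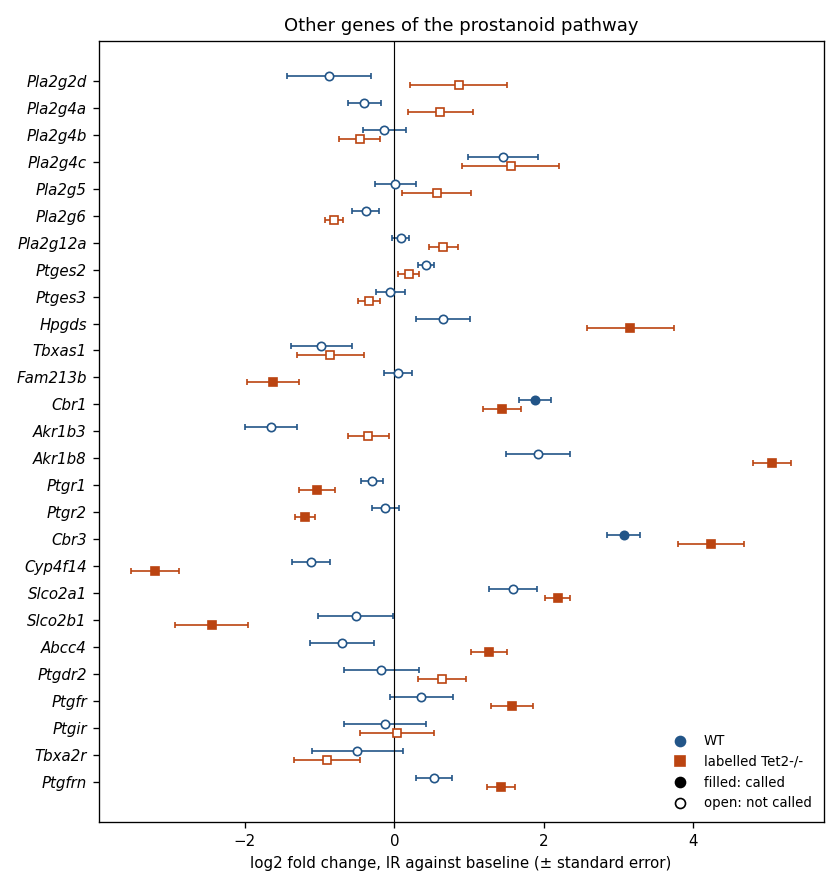
Log2 fold change of IR against baseline with standard error for the other tested genes of the prostanoid pathway, in WT (circles) and in libraries labelled Tet2-/- (squares), with filled symbols for calls. Cbr1 and Cbr3 were called in both genotypes, and Pla2g2e, at 0 counts in all baseline libraries, is left out.

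Among the synthases, Hpgds, Akr1b8 and Cbr1 rose and Fam213b fell in the libraries labelled Tet2-/-. Hpgds, the hematopoietic PGD synthase of mast cells and other leukocytes, was 0.091 to 0.211 FPKM in the 6 baseline libraries, 0.186, 0.235 and 0.238 FPKM in WT IR and 0.697, 1.29 and 2.61 FPKM in Tet2-/- labelled IR libraries. The Tet2-/- labelled IR libraries lay above all others. The rise was 3.16 on the log2 scale (SE 0.58, adjusted p = 0.00442), the genotype difference after IR 2.72 (adjusted p = 0.0283, lost in 4 of 6 fits that left out 1 library) and the interaction 2.55 (SE 0.71, adjusted p = 0.0463). The interaction was lost in 11 of the 12 fits that left out 1 library. Akr1b8, an aldo-keto reductase, was 0.649 to 3.34 FPKM at baseline, 5.21, 11.3 and 14.1 FPKM in WT IR and 27.9, 39.2 and 38.1 FPKM in Tet2-/- labelled IR libraries, again without overlap. Its log2 fold change was 5.05 in the libraries labelled Tet2-/- (adjusted p = 4.78e-05), and the interaction of 3.17 (SE 0.52, adjusted p = 0.00692) held in all 12 such fits. Fam213b, a synthase of PGF2alpha, was 80.1 to 157 FPKM at baseline, 137, 108 and 129 FPKM in WT IR and 26.4, 63.3 and 50.2 FPKM in Tet2-/- labelled IR libraries. It fell by 1.62 on the log2 scale (adjusted p = 0.00871), with an interaction of −1.64 (SE 0.43, adjusted p = 0.038) that was lost in 7 of 12 such fits.

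Among the genes of prostanoid breakdown, Cbr3 rose in the libraries labelled Tet2-/- (4.24, adjusted p = 0.000433) and Ptgr1, Ptgr2 and Cyp4f14 fell. Ptgr2, which reduces the 15-keto product of Hpgd, was 33.2 to 48.3 FPKM at baseline, 43.8, 35.5 and 39.0 FPKM in WT IR and 18.4, 23.3 and 16.5 FPKM in Tet2-/- labelled IR libraries. It fell by 1.19 on the log2 scale (SE 0.13, adjusted p = 0.000577), and the interaction was −1.03 (SE 0.22, adjusted p = 0.0189). Ptgr1, with a like activity, was at −1.04 (adjusted p = 0.0114) and lost its call in 7 of 19 alternatives. Cyp4f14, a fatty acid hydroxylase, was at −3.20 (adjusted p = 0.000395), with an interaction of −2.04 (SE 0.37, adjusted p = 0.00939), from levels of 0.741 to 1.21 FPKM at baseline to 0.113 to 0.168 FPKM in the Tet2-/- labelled IR libraries. Proximal tubule markers summed to 14709 to 23568 FPKM in that group, 22448 to 26472 FPKM in WT IR and 34549 to 53262 FPKM in the baseline libraries, and Kap, a kidney androgen-regulated gene, made up 87.3% to 95.2% of these sums. On IR 7 of the 10 markers fell in the libraries labelled Tet2-/- and 0 of 10 were called in WT. Their part in these changes was not tested.

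Among the transporters, Slco2a1, the prostaglandin uptake carrier, rose by 2.18 on the log2 scale in the libraries labelled Tet2-/- (SE 0.17, adjusted p = 0.000157). Its level was 4.69 to 7.33 FPKM at baseline, 10.6, 17.2 and 23.8 FPKM in WT IR and 31.5, 35.2 and 31.4 FPKM in Tet2-/- labelled IR libraries. The IR libraries of both genotypes lay above all baseline libraries, and the WT effect of 1.59 (SE 0.32, adjusted p = 0.0511) did not pass the test but was called in 12 of 19 alternatives. Abcc4, an exporter of prostaglandins, rose by 1.27 in the libraries labelled Tet2-/- (adjusted p = 0.00542). Its level was 3.33 to 8.79 FPKM in WT baseline and 1.14 to 2.11 FPKM in Tet2-/- labelled baseline. After IR it was 2.365 to 5.475 FPKM in WT and 3.38 to 5.25 FPKM in libraries labelled Tet2-/-. The genotypes differed by −1.78 at baseline (adjusted p = 0.224) and by 0.21 after IR (adjusted p = 0.681). The Abcc4 interaction of 2.0 (SE 0.54, adjusted p = 0.0425) was lost in 8 of the 12 fits that left out 1 library. Slco2b1, a broad organic anion carrier, was at −2.45 (adjusted p = 0.00597). Among the other receptors, Ptgfr, the PGF2alpha receptor, was at 1.57 (adjusted p = 0.00392) and Ptgfrn, its regulatory partner, at 1.42 (adjusted p = 0.00103), while the prostacyclin receptor Ptgir and the thromboxane receptor Tbxa2r were not called in any comparison. Cbr1 rose in the libraries labelled Tet2-/- as well (1.44, adjusted p = 0.00337). Of 14 phospholipase A2 genes, 8 were tested, and only Pla2g2e was called by edgeR with each comparison on its own libraries. Some alternatives called others. Among them were Pla2g4c on IR in the libraries labelled Tet2-/- (1.58, adjusted p = 0.0468, edgeR with all 12 libraries in 1 fit) and Pla2g12a in the interaction (0.70, adjusted p = 0.0431, limma on log2(FPKM + 1)). Pla2g2e had 0 counts in all 6 baseline libraries and 45, 62 and 34.5 counts in Tet2-/- labelled IR libraries, at least 13.7-fold higher in mean FPKM than 3 counts per baseline library of that genotype.

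For the 6 called genes, the 3 genes with the most similar levels over the 12 libraries are given by Pearson's r of log2(FPKM + 0.1) among 16740 others, as a description without a test, since libraries of 1 group share their condition. For Ptgs2 they were Rabgef1 (0.915), Cdh17 (0.902) and Nrip3 (0.900), and for Ptges Cdon (0.956), Tor4a (0.933) and Pwwp2b (0.910). For Hpgd they were Pogz (0.904), Nr2f2 (0.897) and Tcerg1l (0.895). Ptger1 was most similar to Rapgefl1 (0.964), Mycbpap (0.964) and Adra2c (0.959), and Ptger3 to Lnx1 (0.958), Adam1a (0.956) and Egfl6 (0.947). For Ptger4 they were the amino acid transporter Slc7a5 (0.980), the myeloid integrin Itgam (0.978), which is also 1 of the macrophage markers, and Rgs16 (0.976).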

How the data were processed

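Kidney RNA-seq libraries of 12 mice in 4 groups of 3 were analysed, grouped by the labels' genotype and treatment. The authors used STAR for alignment to mm9 and HOMER for counting over RefSeq transcripts (versions not given in the sources used here). They deposited estimated counts without normalization, of which 38.7% were not whole, and the FPKM of the same 34600 transcripts, which scales counts by transcript length and library depth. The labels number 3 libraries per group, and the study describes 3 mice per genotype at baseline. P-values measure the spread between these libraries.

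The deposited counts were rounded, which the design had allowed for, and analysed with edgeR 4.0.16 (limma 3.58.1, R 4.3.3): TMM, filterByExpr, glmQLFit and glmQLFTest, with each comparison on its own 6 libraries and the interaction on all 12. A standard error is the absolute log2 fold change divided by the square root of F. All 10 genes passed the low-count filter in all 5 comparisons. The interaction was called at an adjusted p under 0.05 alone. Alternatives were DESeq2 1.42.0, library size alone, the upper quartile, no filter, a filter at mean FPKM 1, all 12 libraries in 1 fit, a block for replicate number, limma with a pseudocount of 1 or 0.1 added to FPKM before log2, all transcripts of a symbol summed, adjusted p alone, WT baseline replicates 2 and 3 left out together, and each library left out. Leaving out WT baseline replicate 2 with Tet2-/- labelled IR replicate 3 was added after seeing the data. Fits were tested on simulated data. The text names all 10 genes, each gene of the wider list called in at least 1 comparison, and the 3 most similar genes of each called gene whose group mean reached 1 FPKM. The genes, lists and tests were chosen with earlier results of these data known. Python 3.11.15 and matplotlib 3.10.9 made the figures.

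Same-numbered libraries deviated together from their group means between baseline and IR (correlations of 0.349, 0.349 and 0.344 in WT and of 0.120, 0.350 and 0.202 in libraries labelled Tet2-/-), although the mice differ, so the pairing comes from the data alone. Between genotypes the correlations were −0.173, −0.150 and 0.0524 at baseline and −0.000229, 0.206 and 0.303 after IR, and the numbers were not taken as pairs. Promoters came from RefSeq (GRCm38.p6). Ptgis and Ptger1 were not in the table used.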

Additional observations from a re-analysis of the deposited data

Results flagged for a closer look

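For 7 genes the effect of IR differed between the genotypes by the interaction test (edgeR quasi-likelihood test, adjusted p over all genes), beside 9.18% of all genes. Of the 10 genes it passed for Ptgs2 (log2 difference 4.77, adjusted p = 0.0139). In the wider list it passed for Akr1b8 (3.17, adjusted p = 0.00692), Hpgds (2.55, adjusted p = 0.0463) and Abcc4 (2.0, adjusted p = 0.0425), which responded more positively in the libraries labelled Tet2-/-. It also passed for Cyp4f14 (−2.04, adjusted p = 0.00939), Fam213b (−1.64, adjusted p = 0.038) and Ptgr2 (−1.03, adjusted p = 0.0189), which responded more negatively. Of the 12 fits that left out 1 library, the call was lost in 11 for Hpgds, 8 for Abcc4 and 7 for Fam213b, and in 0 for the other 4. All 7 were lost without WT baseline replicates 2 and 3.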

How the results depend on the processing

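Calls over all genes moved with the setting as well and are given beside each count. The count of the 10 genes called on IR in WT went from 0 to 1 with DESeq2 (2.35% and 6.13% of all genes). At baseline between genotypes it went from 0 to 1 with DESeq2 (0.0124% and 1.99%). On IR in the libraries labelled Tet2-/- it was 3 rather than 6 with limma on log2(FPKM + 1). That setting called 1440 higher and 816 lower of 16359 genes, beside 2078 and 1896. With a library left out it was 3 to 6 (3254 to 4278 of all genes), the lowest without Tet2-/- labelled baseline replicate 1. Between genotypes after IR it was 0 (6.15% of all genes), 2 with DESeq2 (10.2%) and 1 with the replicate block (6.75%). It was 2 with all 12 libraries in 1 fit (714 higher and 879 lower of 16741 genes). In the added fit of 10 libraries it was 2 (684 higher and 881 lower of 16829). With a library left out it was 0 to 1 (294 to 942 genes). The interaction called 1 gene (9.18% of all genes), 3 with DESeq2 (16.8%) and 3 with the replicate block (11%). It called 2 in the added fit (535 higher and 1188 lower of 16829), and 1 to 2 with a library left out (697 to 2044 genes). For the wider list, IR in WT called 6 with DESeq2 (6.13% of all genes) and 5 with the replicate block (6.16%). Without a filter it called 4 (256 higher and 164 lower of 20120 genes). It called 6 with all 12 libraries in 1 fit (373 and 258 of 16741) and 4 with transcripts summed (245 and 130 of 16240). In the added fit it called 5 (265 and 152 of 16829), and with a library left out 1 to 5 (87 to 548 genes). The wider list gave 3 calls at baseline with DESeq2 (1.99% of all genes). After IR it gave 2 with limma on log2(FPKM + 1) (226 higher and 369 lower of 16186 genes). With a library left out it gave 1 to 3 (294 to 942 genes). Its interaction gave 3 to 7 with a library left out (697 to 2044 genes). Leaving out WT baseline 2 and 3 together left 1 library in that group, and the counts of that fit are not listed here. The causes were not tested.

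Signs turned for Ptges on IR in WT (0.27 less WT baseline 2 and 3), for Ptgds after IR (−0.0824 in the added fit, and −0.0675 to 0.74 with a library left out), for Ptger2 on IR in the libraries labelled Tet2-/- (−1.23 to 0.79 with a library left out) and for Ptger2 at baseline (−0.50 to 1.17 with a library left out). All 16 effects of the 10 genes under 0.4 on the log2 scale changed sign in at least 1 alternative. The replicate block changed no other call of the 10 genes than those given beside Ptges, Hpgd and Ptger4. Over all genes, IR in WT gave 234 higher and 142 lower, beside 490 and 492 with DESeq2 and 428 and 559 with the block. With 1 library left out, the calls over all genes went from 376 to between 87 (without WT baseline 3) and 548 (without WT IR 1) for IR in WT, moving over 1.5 times in 5 of 6 fits. They went from 996 to between 294 (without WT IR 1) and 942 for genotype after IR (5 of 6 fits), from 2 to between 2 and 10 (without WT baseline 1) for genotype at baseline (3 of 6 fits), and from 1536 to between 697 (without Tet2-/- labelled baseline 3) and 2044 for the interaction (7 of 12 fits). Genotype after IR gave 373 higher and 623 lower, beside 775 and 880 with DESeq2, and the interaction 634 and 902, beside 1210 and 1600. Library size alone moved the median log2 fold change of all genes on IR in the libraries labelled Tet2-/- from 0.04 to 0.27 (2860 higher and 1397 lower, beside 2078 and 1896) and that of the interaction from 0.10 to 0.24 (1129 higher and 700 lower). Ptger2 had 0 to 87 counts per library.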
